A study of Harpegnathos saltator with 47 samples.

Results

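Among the genes expressed in brains of the ant Harpegnathos saltator, 100 stood highest in gamergates and fell away to both groups of workers. They were taken from 10195 genes with a mean of at least 1 RPKM (reads per kilobase of gene, scaled to the ant's reads in genes), out of 18429 genes in all. For each gene the median of log2(RPKM + 1) was taken per group in sequencing batch B and in batch C, and the 2 medians were averaged. Gamergates had the highest group value for 2831 genes. In 1440 of these the step from gamergates to the middle group exceeded the step from the middle to the lowest group, and the 100 with the widest upper step, called the gap here, form the list. The genes were thus chosen by their measured levels in batches B and C, and group differences in those ants are given as a description without a test.

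Harpegnathos workers keep functional ovaries. When a colony lacks a dominant reproductive, workers duel with their antennae, and some become gamergates, workers that mate and lay eggs while the others go on with tasks such as hunting. An insect brain holds neurons, including those that secrete peptide hormones, and glia, and fat body and blood cells can adhere to it. In such a mixture, fewer cells of a type and less RNA per cell cannot be told apart.

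The study measured RNA in brains without optic lobes from 33 ants on day 120. The 12 gamergates and 11 transition workers were moved soon after eclosion into nests without a reproductive but with males, and were separated on day 120 by the state of their ovaries. The 10 stable workers carry the colony label stable. Their age and the nest of each ant are not given in the labels, so p-values measure only the spread between these ants. Batch A, set by the run date in the library names, held 2 gamergates, 2 transition workers and 0 stable workers. There were 5 ants of every group in batch B, while batch C had 5 gamergates, 4 transition workers and 5 stable workers. Each ant had between 3904943 and 11159675 reads in genes. Of the 18429 gene IDs, 0 were found in the RefSeq gene table, so the genes are called here by their IDs, their functions are not described, and the tissue was not checked against named markers.

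The gap ran from 0.38 to 4.88 on the log2(RPKM + 1) scale with a median of 0.49. It was at least 1, a doubling on that scale, in 11 genes and under 0.5 in 54. The last 3 genes inside the list were Hsal_05866 (gap 0.39), Hsal_10979 (0.39) and Hsal_17191 (0.38), and the next 3 outside it, Hsal_10349, Hsal_01507 and Hsal_05562, each had a gap of 0.38. Transition workers were the middle group for 56 genes and stable workers for 43, with 1 tie.

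Most of the genes were weakly expressed. The median level in gamergates was under 10 RPKM in 59 genes and at least 100 RPKM in 9. In reads, 24 genes had a median under 10 reads in gamergates and 40 had a median of at least 100 reads. The list's genes had a median length of 1016 bp, against 1611 bp over all 10195 genes. Their median spread within groups was 0.63 (SD on the log2 scale), against 0.36 over all those genes. The filter on mean RPKM was reached through gamergates in 17 genes, whose mean over the 21 workers was under 1 RPKM. The gap exceeded the SD within groups in 40 genes. Among the 1440 genes with gamergates highest and the larger upper step, 6.11% had such a gap, and nothing is read from that difference because the gap chose the list.

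Hsal_10714 had the widest gap, 4.88. Its level in gamergates was 0 RPKM at the lowest, 35.5 at the median and 525 at the highest. In transition workers the lowest, median and highest levels were 0, 0.308 and 0.799 RPKM, and in stable workers they were 0, 0.263 and 1.80 RPKM. In reads, its median was 250.5 in gamergates, 2 in transition workers and 2.5 in stable workers. The gene was close to silent in every worker and in 4 gamergates (numbers 1, 5, 9 and 11, at 0 to 1.29 RPKM). The other 8 gamergates, at 6.16 RPKM or more, lay above every worker. The group averages of this gene therefore rest on some gamergates and not on all of them.

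**Figure D1:**
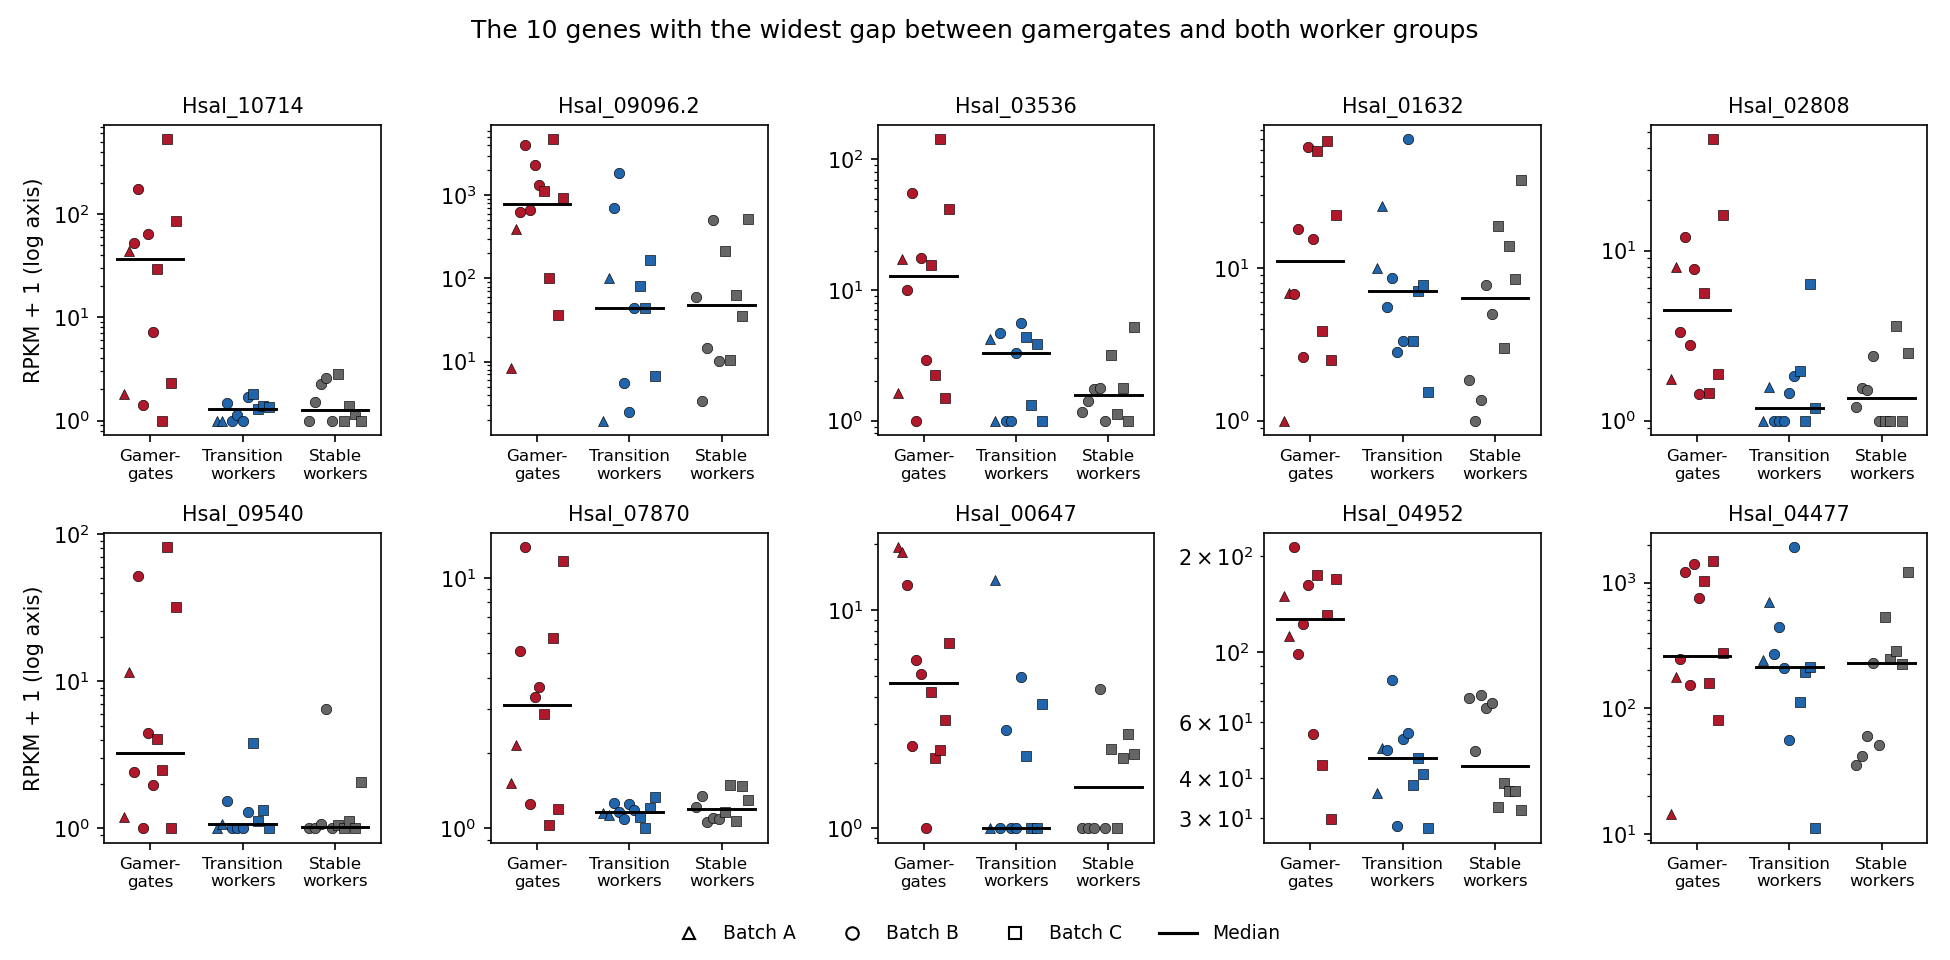
RPKM + 1 on a log axis for the 10 genes with the widest gap, with 1 point per ant, the batch shown by the symbol and the median of each group as a line. In Hsal_10714 the gamergates run from 0 to 525 RPKM while the highest worker stands at 1.80 RPKM, and in Hsal_01632 and Hsal_04477 the groups overlap over most of their range.

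Hsal_03536, Hsal_02808, Hsal_09540 and Hsal_07870 repeated this shape at lower levels. Hsal_03536 had a lowest, median and highest level of 0, 11.8 and 141 RPKM in gamergates, 0, 2.30 and 4.59 RPKM in transition workers, and 0, 0.581 and 4.16 RPKM in stable workers. Hsal_02808 had 0.438, 3.46 and 44.2 RPKM in gamergates, 0, 0.189 and 5.33 RPKM in transition workers, and 0, 0.353 and 2.58 RPKM in stable workers. Their upper ends were all in gamergates, and the lowest gamergates lay inside the range of the workers. Hsal_09540 had 0, 2.26 and 80.2 RPKM in gamergates, 0, 0.0774 and 2.79 RPKM in transition workers, and 0, 0.0238 and 5.48 RPKM in stable workers. Hsal_07870 had 0.0343, 2.11 and 12.2 RPKM in gamergates, 0, 0.168 and 0.339 RPKM in transition workers, and 0.0573, 0.191 and 0.491 RPKM in stable workers. Workers varied little in Hsal_07870, and 9 of 12 gamergates lay above the highest of them.

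Hsal_09096.2 had the second widest gap, 4.44, at a far higher level. It reached a lowest, median and highest level of 7.46, 796 and 4721 RPKM in gamergates. The levels were 0.949, 43.4 and 1873 RPKM in transition workers and 2.33, 46.9 and 523 RPKM in stable workers. All 3 groups held both low and high ants, and 3 gamergates lay above the highest worker. Hsal_04477 also varied widely, with 13.4, 259 and 1481 RPKM in gamergates, 10.1, 214 and 1911 RPKM in transition workers, and 34.2, 226 and 1210 RPKM in stable workers. Hsal_01632 had 0, 10.2 and 67.3 RPKM in gamergates, 0.546, 6.07 and 69.0 RPKM in transition workers, and 0, 5.36 and 36.9 RPKM in stable workers. In both Hsal_04477 and Hsal_01632, 0 gamergates exceeded the highest worker although their gaps were 1.18 and 1.84.

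Hsal_04952 differed from these in being well expressed in every ant. Its level was 28.7, 125 and 212 RPKM in gamergates, 26.8, 45.5 and 80.4 RPKM in transition workers, and 30.8, 42.8 and 72.0 RPKM in stable workers. It averaged 121 ± 56.7 RPKM in gamergates, 45.1 ± 15.0 RPKM in transition workers and 49.5 ± 17.6 RPKM in stable workers (SD, n = 12, n = 11 and n = 10). All but 3 gamergates (numbers 7, 9 and 11) were above the highest worker. Hsal_00647, also among the 10 genes with the widest gaps, is only 89 bp long. Its levels of 0, 3.66 and 18.4 RPKM in gamergates, 0, 0 and 12.7 RPKM in transition workers, and 0, 0.549 and 3.37 RPKM in stable workers rest on at most 10 reads per ant.

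Hsal_07870 and Hsal_04952 were joined by Hsal_03329 and Hsal_01339 as the 4 genes in which 9 of the 12 gamergates exceeded every worker. Hsal_03329 had 1.61, 3.10 and 4.95 RPKM in gamergates, 0.795, 1.50 and 2.08 RPKM in transition workers, and 0.596, 1.53 and 2.52 RPKM in stable workers. Hsal_01339 had 2.68, 4.08 and 6.05 RPKM in gamergates, 1.10, 2.48 and 3.40 RPKM in transition workers, and 1.94, 2.65 and 3.26 RPKM in stable workers. Both differed from the genes above in having a narrow range in gamergates relative to their level. The gap of Hsal_01339 was only 0.41, rank 83 of 100, so order by gap and separation between ants were different things.

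In 60 genes at least 1 gamergate was above the highest of the 21 workers, and 26.7% of all 10195 genes had this. In 32 genes (5.03% of all genes) it was at least 3 gamergates, in 11 (0.333%) at least 6, and in 6 (0.0589%) at least 8. At least 9 gamergates exceeded every worker in 4 genes (0.0392%). All 12 gamergates exceeded every worker in 0 genes, the same as over all genes (0%). In 40 genes no gamergate exceeded the highest worker. These counts use the values that chose the list, and nothing is read from their excess over all genes.

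The most abundant genes of the list in gamergates, beside Hsal_09096.2 and Hsal_04477, were Hsal_07315, Hsal_03770 and Hsal_00867. Hsal_07315 had 283, 448 and 578 RPKM in gamergates, 165, 301 and 467 RPKM in transition workers, and 123, 371 and 462 RPKM in stable workers. Hsal_03770 had 194, 325 and 510 RPKM in gamergates, 150, 264 and 353 RPKM in transition workers, and 175, 218 and 380 RPKM in stable workers. Hsal_00867 had 110, 236 and 330 RPKM in gamergates, 93.7, 135 and 265 RPKM in transition workers, and 92.4, 121 and 242 RPKM in stable workers. These 3 genes were high in every ant, and the ranges of the groups overlapped in each.

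Gamergates differed in how many of the genes were high. The number of its genes above every worker was 16, 24, 15, 23, 12, 28, 11, 17, 1, 25, 4 and 12 in gamergates 1 to 12. Gamergates 9 and 11, both of batch C, were lowest by this count. The median over the 100 genes of an ant's level minus the worker mean had a lowest, median and highest value of 0.19, 0.52 and 0.87 in gamergates. It was -0.34, 0.03 and 0.33 in transition workers and -0.39, -0.07 and 0.20 in stable workers. Gamergates 9 and 11, at 0.19 each, fell within the range of both worker groups, and the other 10, at 0.45 or more, lay above all workers. The genes listed at 0 RPKM numbered 2 to 6 per gamergate, 3 to 15 per transition worker and 2 to 17 per stable worker. Median depth was 7627792 reads in gamergates, 6204530 in transition workers and 7614597 in stable workers. The rule chose genes lower in workers, so nothing is read from these counts of genes at 0 RPKM.

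**Figure D2:**
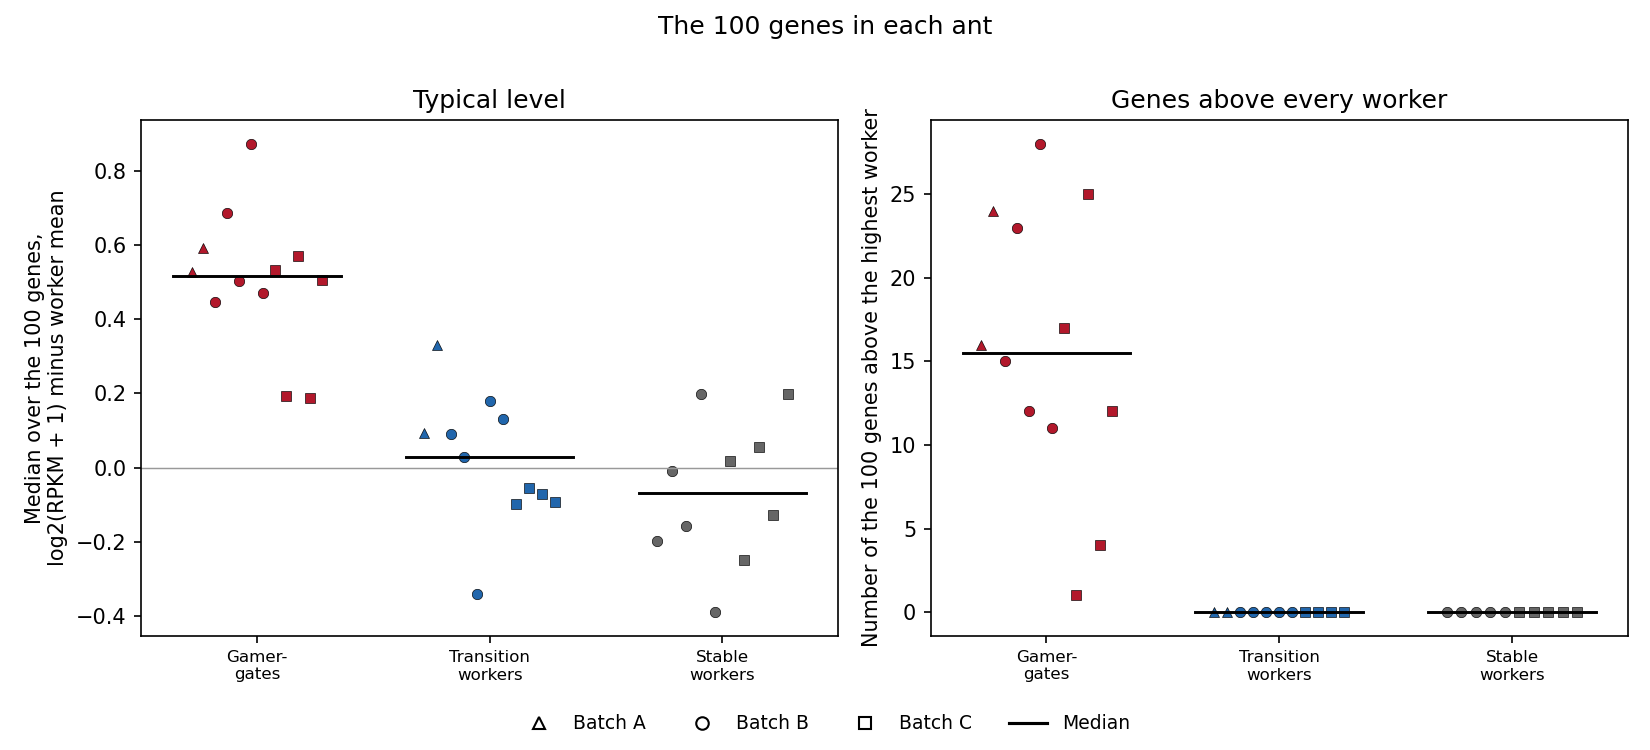
For each ant, the median over the 100 genes of log2(RPKM + 1) minus the worker mean (left) and the number of the 100 genes above the highest of the 21 workers (right, 0 for workers by construction), with group medians as lines and batches as symbols. Gamergates 9 and 11 of batch C stand lowest in both panels, at 0.19 and at 1 and 4 genes.

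The list did not vary as 1 block among ants of the same caste. Over all pairs of its genes, the median Pearson correlation within batches was 0.040 over 12 gamergates, 0.047 over 11 transition workers and 0.079 over 10 stable workers. Over all 10195 genes these medians were 0.050, 0.079 and 0.022. Average linkage, with levels centred within group and batch and genes joined below a distance of 0.5, placed 51 genes in 10 sets of at least 3 genes and left 49 in none. Correlations below are across ants that share batches and are descriptions. The sets were formed on these ants and have no test.

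**Figure D3:**
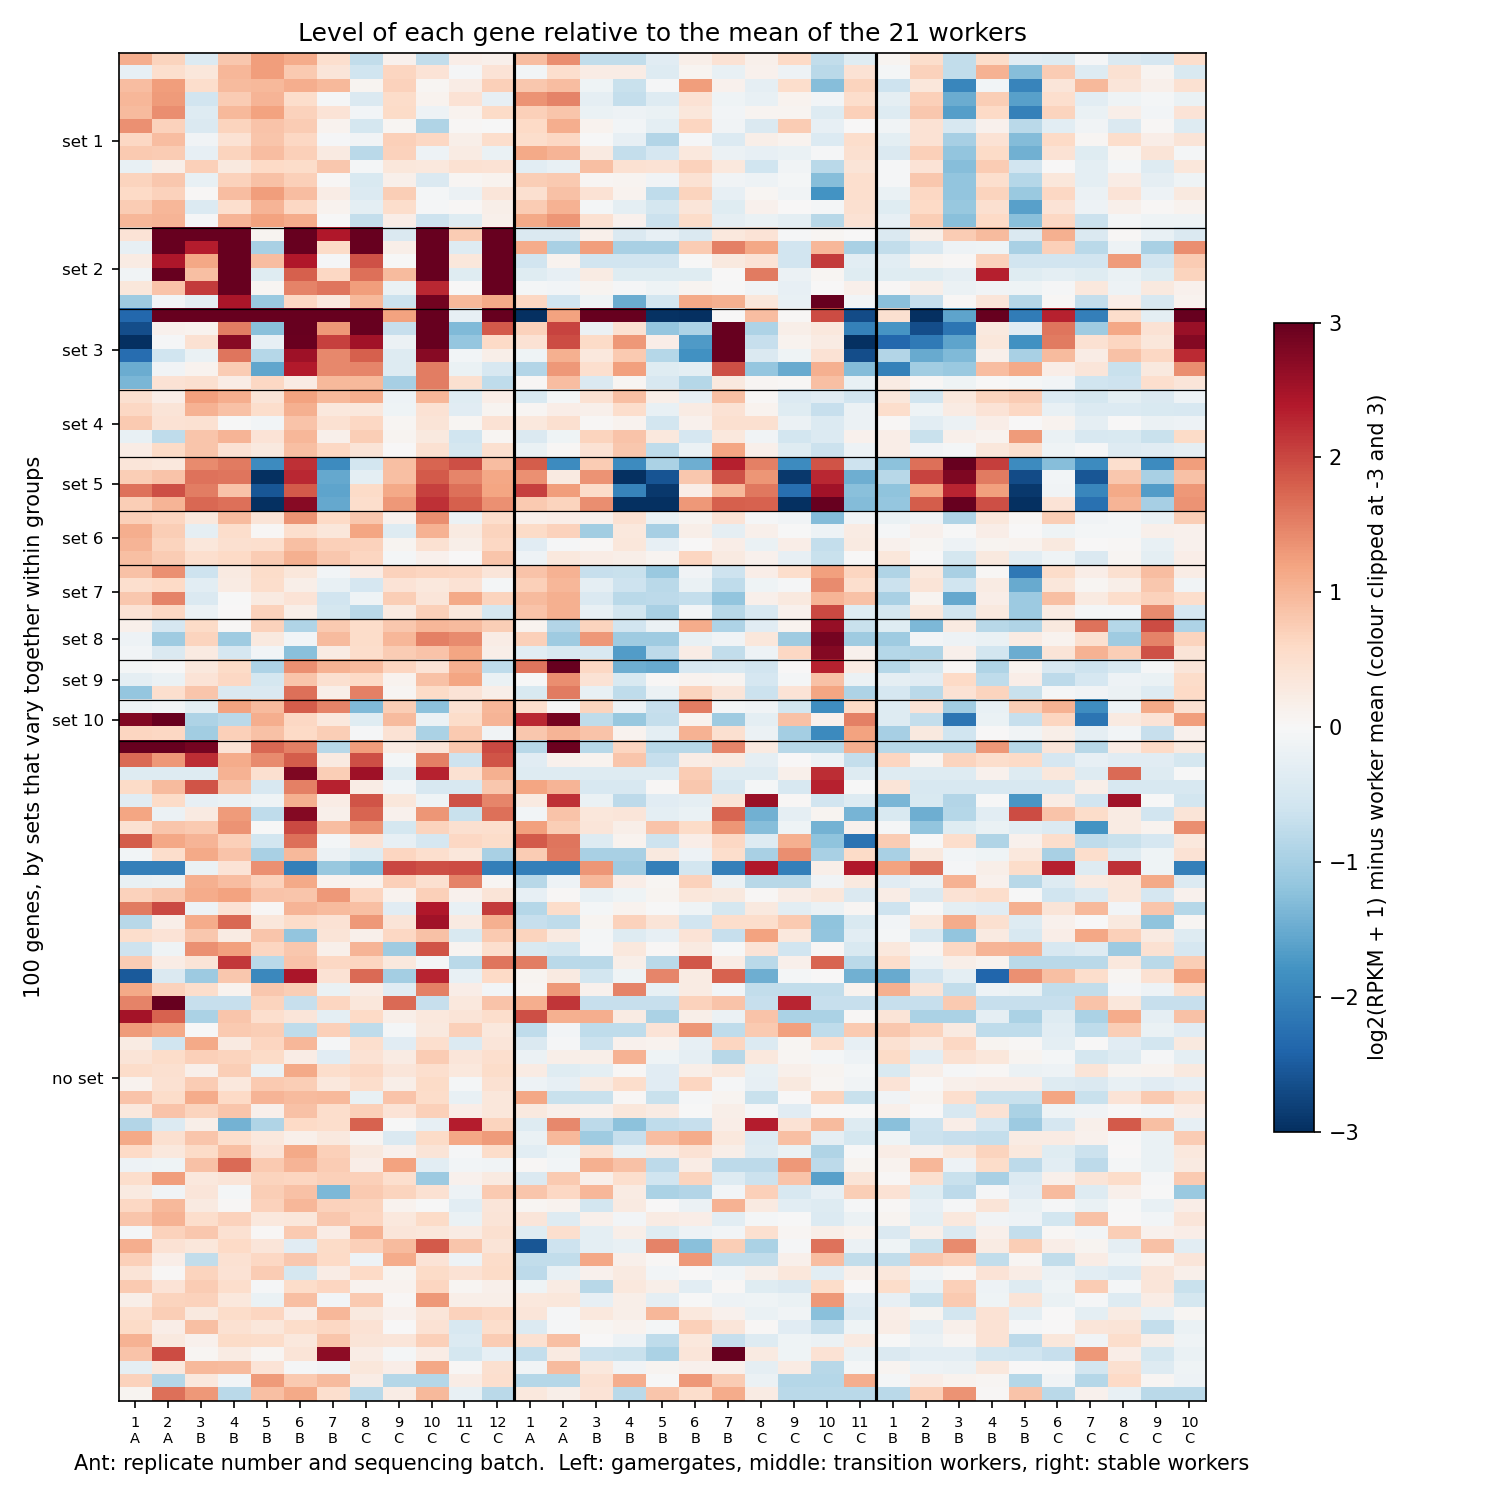
Level of each of the 100 genes (rows, ordered by set) in each of the 33 ants (columns, with gamergates left, transition workers in the middle and stable workers right), as log2(RPKM + 1) minus the mean of the 21 workers. Set 2 is dark in some gamergates and near 0 in gamergates 1, 5, 9 and 11, set 5 varies in all 3 groups, and most other genes differ by less.

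Set 2 held Hsal_10714, Hsal_03536, Hsal_02808, Hsal_09540, Hsal_07870 and Hsal_14876. Its median pairwise correlation was 0.77 over 33 ants, 0.86 within gamergates, 0.23 within transition workers and 0.42 within stable workers. In that order the genes had medians of 2, 22, 1, 1, 3 and 20 reads in transition workers. In stable workers the medians were 2.5, 7, 1.5, 0.5, 4.5 and 14.5 reads. Reads this few limit any correlation within workers. The mean log2(RPKM + 1) over its 6 genes was 0.45, 2.74 and 5.82 (lowest, median and highest) in gamergates, 0.04, 0.73 and 1.73 in transition workers, and 0.13, 0.60 and 1.36 in stable workers. It was 2.59 or more in gamergates 2, 3, 4, 6, 8, 10 and 12, then 1.59 in gamergate 7, and 0.90 or less in gamergates 1, 5, 9 and 11. High and low gamergates both occurred in each of the 3 batches, and these 5 lowest gamergates, number 7 included, lay within the range of the workers.

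The 5 genes whose levels over the 12 gamergates, centred by batch, were most like those of Hsal_10714 were Hsal_03536 (Pearson's r 0.984, Spearman's rho 0.965), Hsal_02808 (0.921 and 0.937), Hsal_03199 (0.894 and 0.909), Hsal_09540 (0.889 and 0.937) and Hsal_07870 (0.853 and 0.853). Without gamergates 5 and 9, the pair farthest from the median of Hsal_10714, their Pearson's r over 10 gamergates was 0.989, 0.965, 0.904, 0.912 and 0.749 in the same order. The lowest correlations with Hsal_10714 were those of Hsal_01159 (-0.595), Hsal_05433 (-0.527), Hsal_02256 (-0.522), Hsal_17050 (-0.506) and Hsal_03205 (-0.482). Both ends are extremes picked from the list over 12 gamergates, and whether they exceed chance was not tested. Hsal_17050 had a median of 1 read in gamergates. Hsal_01159 had 5.65, 20.0 and 24.5 RPKM in gamergates, 2.67, 18.1 and 30.6 RPKM in transition workers, and 5.85, 11.9 and 15.9 RPKM in stable workers, so its highest ant was a transition worker.

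Set 3 held Hsal_09096.2, Hsal_01632, Hsal_04477, Hsal_13031, Hsal_09659 and Hsal_05727. Its genes varied together in every group, with a median correlation of 0.85 within gamergates, 0.75 within transition workers and 0.63 within stable workers. The few reads of set 2 in workers limit a comparison of the sets there. Its mean level was 1.44, 4.62 and 6.91 in gamergates, 1.58, 3.52 and 5.76 in transition workers, and 1.90, 3.67 and 5.89 in stable workers. Transition worker 7 and stable worker 10 were the highest of their groups and the lowest ant of all was gamergate 1, so the 3 groups overlapped widely.

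Set 5 held Hsal_00556, Hsal_01174, Hsal_00827 and Hsal_11245, the most tightly linked of the sets of at least 4 genes, with a median correlation of 0.93 over 33 ants. Its mean level was 0.67, 4.76 and 5.91 in gamergates, 0.88, 3.86 and 6.10 in transition workers, and 1.02, 3.95 and 6.50 in stable workers. Low and high ants occurred in each group, and the highest was stable worker 3.

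Set 6 held Hsal_07069, Hsal_00928, Hsal_01339 and Hsal_05866, of which Hsal_01339 was described above. Its mean level was 2.63, 3.34 and 3.64 in gamergates, 1.98, 2.75 and 3.01 in transition workers, and 2.29, 2.70 and 2.99 in stable workers. Gamergates 9 and 11 were again within the range of the workers, as was gamergate 3, at 2.91, and the other 9 lay above every worker.

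**Figure D4:**
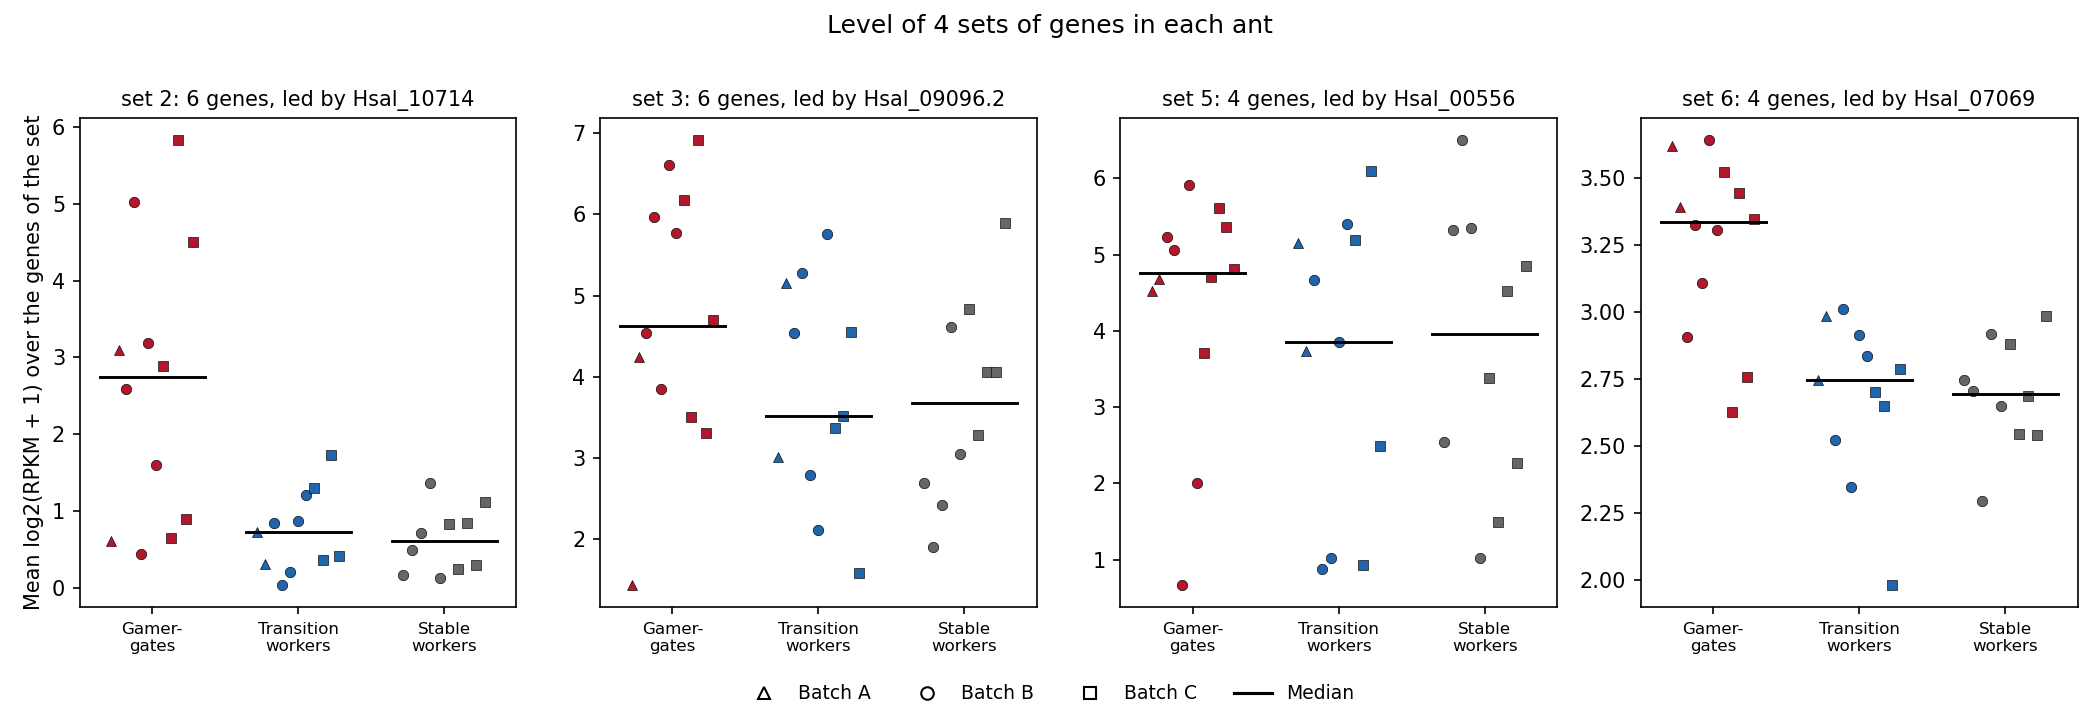
Mean log2(RPKM + 1) over the genes of sets 2, 3, 5 and 6 in each ant, with group medians as lines and batches as symbols. Set 2 splits the gamergates from 0.45 to 5.82, sets 3 and 5 cover much the same range in all groups, and in set 6 gamergates have a median of 3.34 against 2.75 in transition workers and 2.70 in stable workers.

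Set 1, the largest, held 13 genes, among them Hsal_07315, Hsal_03205 and Hsal_02256, with a median correlation of 0.74 over 33 ants. Set 4 held Hsal_00867, Hsal_03770, Hsal_06549, Hsal_03769 and Hsal_00829, with a mean level of 6.10, 6.89 and 7.45 in gamergates, 5.95, 6.34 and 7.11 in transition workers, and 6.04, 6.32 and 7.08 in stable workers. Among the list's genes, 2 pairs had consecutive IDs. Hsal_03769 and Hsal_03770 had a correlation of 0.879 over 12 gamergates, and Hsal_02381 and Hsal_02382 had 0.950. Whether reads were split between the members of a pair, or between other similar genes, was not tested.

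Within each batch used for the choice, most genes kept the direction by group means. The mean was higher in gamergates than in transition workers for 95 of the 100 genes in batch B, against 39.5% of all genes, and for 84 in batch C, against 63.8%. It was higher in gamergates than in stable workers for 94 genes in batch B (47.2% of all genes) and for 81 in batch C (42.3%). These are the ants that chose the list. Lists of 100 genes made from batch B alone and from batch C alone share 10 genes in all, each a member of the list. They are Hsal_10714, Hsal_09096.2, Hsal_03536, Hsal_02808, Hsal_09540, Hsal_07870, Hsal_04952, Hsal_06531, Hsal_14447 and Hsal_00867. Hsal_06531 had a median of 3 reads in gamergates. Whether an overlap of 10 exceeds chance was not tested. The list kept 29 genes whichever of its 29 ants was left out.

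Library names begin with 1 of 3 prefixes, whose meaning is not given in the labels, and the prefix moved with caste. In batch A both gamergates had prefix b and both transition workers prefix ND, so prefix and caste cannot be told apart there. In batch B all 5 gamergates had prefix b, while 3 stable workers had prefix ND and 2 prefix H. In batch C 4 gamergates had prefix b and 1 prefix H, and all 4 transition workers and 5 stable workers had prefix H. Prefix and caste thus cannot be told apart between gamergates and stable workers of batch B, or in batch C beyond gamergate 12. In batch B, where 3 transition workers also had prefix b, the median gene of the list was 0.54 higher in gamergates than in those 3 and 90 of 100 genes were higher, against 0.54 and 95 genes for all 5 transition workers. Over all 10195 genes, 38.3% were higher in gamergates than in those 3 and 39.5% than in all 5. Gamergate 12, the only gamergate with prefix H, was above every worker in 6 of the 10 genes with the widest gaps, among them Hsal_10714 at 85.1 RPKM, and not in Hsal_09096.2, Hsal_01632, Hsal_00647 and Hsal_04477. These ants chose the list, so their values do not test the part of the prefix, which was not tested.

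The authors' deposited table compares gamergates with transition workers, and 15 of the 100 genes had an adjusted p under 0.05 there and were higher in gamergates, against 0.267% of the 11983 genes with an adjusted p. These 15 are 46.9% of the 32 genes the authors' deposited table calls higher in gamergates. Of the list's genes, 90 had a log2 fold change above 0 in the authors' deposited table. It rests on the contrast that chose the list, so nothing is read from this agreement.

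The 4 ants of batch A took no part in the gap and entered the choice only through the filter on mean RPKM. They give the only test of these genes, and it compares gamergates with transition workers on the log2(RPKM + 1) scale. The 17 genes with a worker mean under 1 RPKM passed that filter through gamergates, those of batch A included. Some genes of the list passed it only with the ants of batch A. Among them were Hsal_17050, at 15.1 RPKM in gamergate 2, Hsal_03205, Hsal_01638, Hsal_05738 and Hsal_06107. For such genes batch A is not wholly apart from the choice. The model was fitted with limma to all 33 ants and 11234 rows. At a Benjamini-Hochberg adjusted p under 0.05 in limma, 0 genes of the list were higher in gamergates and 0 were lower. Over all rows, 0.00890% were called higher and 0% lower. With so few ants the test could miss differences as small as most gaps of the list. In simulated data, 50 genes each were changed by 1, 2, 3 and 4 on the log2 scale. The test recovered 26% of those changed by 1, and the whole simulation had 11 false calls. The changed genes were drawn from all rows and not from the list, whose genes had a wider median spread. The 26% may therefore not hold for the list. The 0 calls therefore do not show that the genes were alike in the castes of batch A. At an unadjusted p under 0.05, limma gave 11 genes of the list higher in gamergates (1.41% of all rows) and 2 lower (2.71% of all rows). These counts depended on single ants. Limma gave 4 genes higher and 5 lower at that p without transition worker 1, 7 higher and 4 lower without gamergate 2, 6 higher and 1 lower without gamergate 1, and 10 higher and 0 lower without transition worker 2. Limma with voom on recovered reads also called 0 genes of the list, with 10 higher and 1 lower at an unadjusted p under 0.05.

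By direction alone, 62 of the 100 genes were higher in the gamergates of batch A, 36 were lower and 2 had no difference, while 48.2% of all rows were higher. With the filter at a mean of 1 RPKM, 48.7% of all rows were higher. The median difference was 0.20 over the list and -0.01 over all rows tested. Both contrasts with all rows depended on single ants. Without gamergate 2 the list had a median of 0.059, against 0.044 over all rows, and 56 of the 100 genes were higher, against 56.0% of all rows. Without transition worker 1, 57 genes were higher, against 52.9% of all rows. Both gamergates were above both transition workers in 32 genes (22.0% of all rows) and below both in 18 genes (20.7%). Of the genes in which at least 3 gamergates of batches B and C exceeded the highest worker there, 25 of 32 were higher in the gamergates of batch A, with a median difference of 0.48. Of those in which 1 or 2 did, 13 of 27 were higher, with a median of -0.03, and of those in which 0 did, 24 of 41 were higher, with a median of 0.18. Without gamergate 2 these were 21 of 32 with a median of 0.39, 12 of 27 with -0.13, and 23 of 41 with 0.043. Without transition worker 1, 22 of 32, 8 of 27 and 27 of 41 were higher, in the same order. Without transition worker 2 the median was 0.11 in the group of 27 and 0 in the group of 41.

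**Figure D5:**
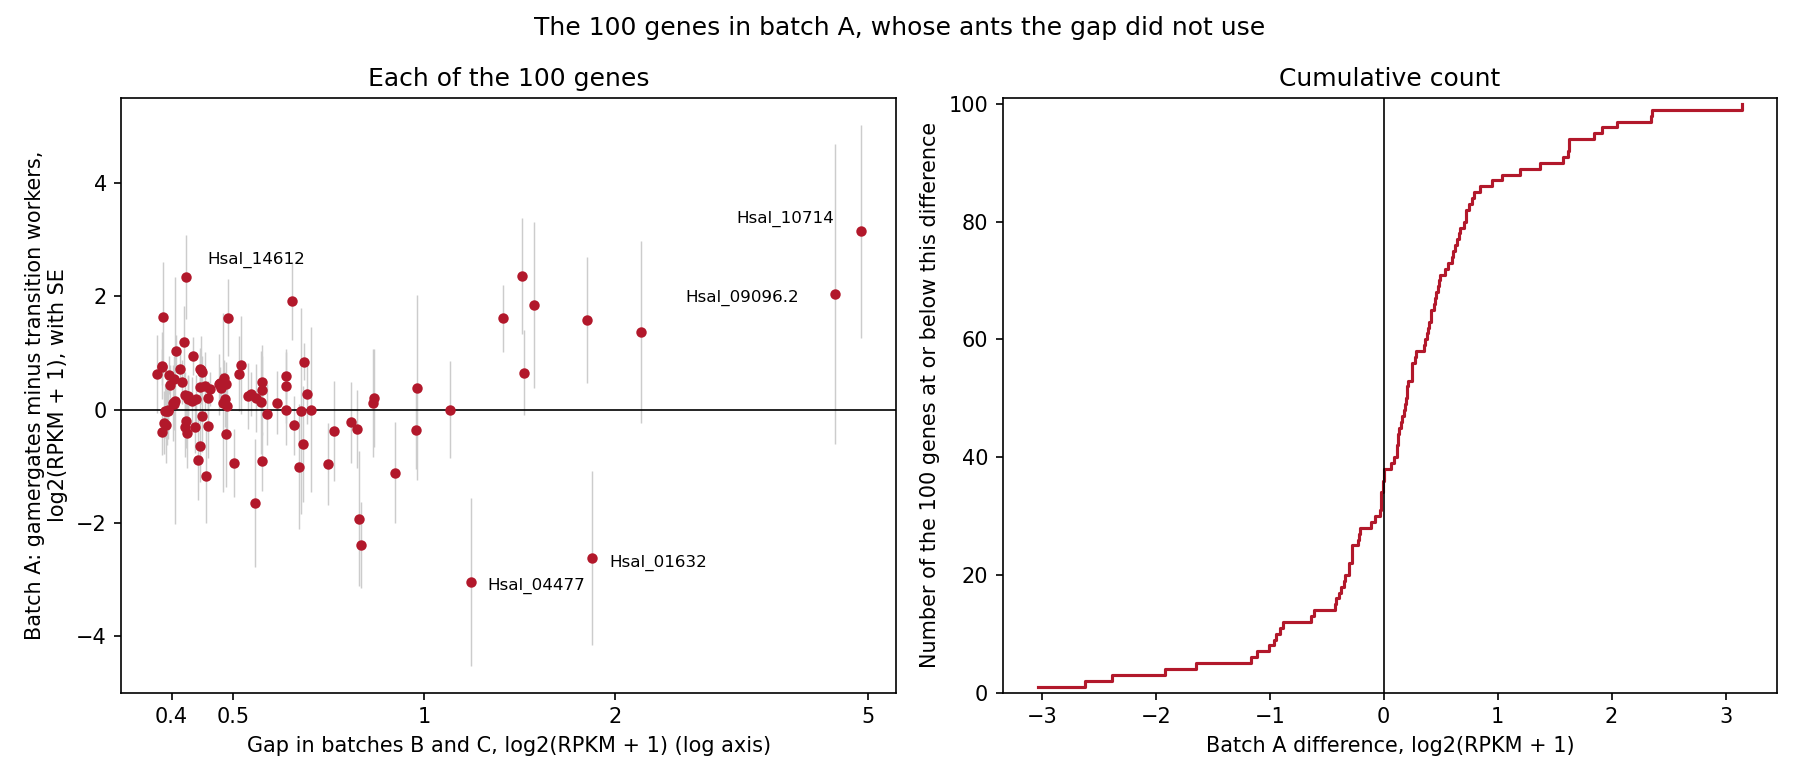
Left, difference between gamergates and transition workers in batch A for each of the 100 genes (points, with SE from limma) against its gap in batches B and C on a log axis; right, the number of genes at or below each difference. Of the 100 genes 62 lie above 0 and 36 below, and differences run from -3.04 for Hsal_04477 to 3.15 for Hsal_10714.

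Of the 10 genes with the widest gaps, 8 were higher in the gamergates of batch A, and 6 without gamergate 2. Of the first 50 genes by gap 28 were higher, and of the last 50 it was 34. Hsal_10714 had 0.795 and 42.7 RPKM in the 2 gamergates, against 0 and 0 RPKM in the 2 transition workers. Its difference of 3.15 (SE 1.88) had p = 0.105 in limma before adjustment and p = 1 after it. The gene was thus high in 1 of the 2 gamergates, with 254 reads there and 5 reads in the other. The difference was 0.84 without gamergate 2 and 5.45 without gamergate 1. Hsal_09096.2 had 7.46 and 394 RPKM in gamergates, against 0.949 and 99.7 RPKM in transition workers, a difference of 2.05 (SE 2.65), and the groups overlapped. Hsal_03536 had 0.640 and 16.2 RPKM in gamergates, against 3.22 and 0 RPKM in transition workers, a difference of 1.37 (SE 1.60). Both changed sign when gamergate 2 was left out, to -0.73 for Hsal_09096.2 and -0.32 for Hsal_03536, and Hsal_09096.2 also without transition worker 1, to -0.80. Without gamergate 1 they were 4.82 for Hsal_09096.2 and 3.07 for Hsal_03536, and without transition worker 2 they were 4.89 and 0.33.

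Hsal_04952 had 149 and 111 RPKM in the gamergates of batch A, against 35.0 and 48.7 RPKM in the transition workers. Both gamergates were well above both transition workers, a difference of 1.62 (SE 0.59, unadjusted p = 0.0105 and adjusted p = 0.875 in limma). Hsal_01339 had 6.05 and 4.51 RPKM in gamergates, against 1.74 and 2.35 RPKM in transition workers. Its difference of 1.04 (SE 0.28) had the smallest p of the list, 0.000896 unadjusted and 0.480 adjusted in limma. Hsal_03329 had 2.91 and 3.24 RPKM in gamergates, against 1.05 and 1.50 RPKM in transition workers, 0.85 higher in gamergates (SE 0.33), with p = 0.968 in limma after adjustment. These 3 genes separated the 4 ants, and none passed the threshold after adjustment.

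Other genes with large differences in batch A had few reads. Hsal_14612 had 11.5 and 6.94 RPKM in gamergates, against 0 and 2.82 RPKM in transition workers, from 14, 8, 0 and 3 reads in that order. Its difference was 2.35 (SE 0.74, adjusted p = 0.669 in limma). Hsal_00647 had 18.4 and 17.5 RPKM in gamergates, against 0 and 12.7 RPKM in transition workers, from 10, 9, 0 and 6 reads, a difference of 2.36 (SE 1.02). It was 0.47 without transition worker 1 and 4.25 without transition worker 2. Hsal_12585 had 4.33 and 6.10 RPKM in gamergates, against 0 and 1.66 RPKM in transition workers, 1.92 higher in gamergates (SE 0.69), with p = 0.858 in limma after adjustment. In each of these, both gamergates were above both transition workers. Without transition worker 1 the difference was 1.38 for Hsal_14612 and 1.21 for Hsal_12585.

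Hsal_04477, Hsal_01632, Hsal_09131, Hsal_13031 and Hsal_04029 had the lowest differences in batch A, against the direction that placed them on the list. Hsal_04477 had 13.4 and 176 RPKM in gamergates, against 242 and 706 RPKM in transition workers, a difference of -3.04 (SE 1.48). Hsal_01632 had 0 and 5.84 RPKM in gamergates, against 9.10 and 24.5 RPKM in transition workers, a difference of -2.62 (SE 1.53). Hsal_09131 had 2.25 and 2.38 RPKM in gamergates, against 9.27 and 28.2 RPKM in transition workers, a difference of -2.38 (SE 0.76, unadjusted p = 0.00376 and adjusted p = 0.669 in limma). Both gamergates were below both transition workers in these 3 genes. Hsal_13031 and Hsal_04029 differed by -1.92 and -1.65. Without gamergate 1 the differences were -1.23 for Hsal_04477, -1.23 for Hsal_01632, -1.08 for Hsal_13031 and -0.60 for Hsal_04029. Without gamergate 2 they were -4.84 for Hsal_04477, -4.01 for Hsal_01632 and -2.69 for Hsal_04029.

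By set, all 4 genes of set 6 were higher in the gamergates of batch A, with a median difference of 0.62, as were 4 of the 5 genes of set 4, with a median of 0.38, and 5 of the 6 genes of set 2, with a median of 1.47. In set 3, 1 of 6 genes was higher and the median was -1.46, and in set 1, 5 of 13 were higher with a median of -0.03. Set 9 had 0 of 3 genes higher with a median of -0.91, and set 10 had 1 of 3 with -0.28. Sets 5, 7 and 8 had 3 of 4, 2 of 4 and 2 of 3 genes higher, with medians of 0.14, -0.08 and 0.12. Without gamergate 2 the median of set 2 was 0.31, while that of set 6 was 0.49 to 0.75 whichever of the 4 ants was left out. The sign of the median changed in sets 1, 5, 7 and 8 when 1 of the 4 ants was left out. The mean level of set 2 was 0.61 and 3.10 in the gamergates of batch A, against 0.73 and 0.31 in the transition workers, so gamergate 2 alone stood apart from the workers. The mean level of set 6 was 3.62 and 3.39 in those gamergates, against 2.75 and 2.99 in the transition workers, without overlap. Batch A also helped to form these sets, so these values are descriptions.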

How the data were processed

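RNA from 33 ant brains was sequenced in 47 runs with strand-specific libraries from polyA RNA, as the labels' protocols state. STAR 2.5.0b and DESeq2 are the tools in the submitters' processing notes. Build, annotation and counting settings were not given in the sources. RPKM is the unit of the values deposited by the authors, with 1 column per ant, although 14 ants have 2 runs, and 0 further per-sample columns. Their other table sets transition workers over gamergates. Its columns, per the file headers, hold a log2 fold change, a p-value as computed and as adjusted, and a mean signal (baseMean), all from the authors' test. Its log2 sign was turned so that positive means higher in gamergates.

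Values were used as log2(RPKM + 1). Whole reads were recovered from the RPKM steps: of 404997 values, 100% were whole within 0.01 reads. Depth was 3904943 to 11159675 reads in genes per ant. Rows averaging 0.5 RPKM or more were fitted with limma 3.58.1 (R 4.3.3) as 8 means of group by batch, with a trend in the prior spread, two-sided tests and Benjamini-Hochberg adjustment over 11234 rows. The script was tested on simulated data. Summaries used Python 3.11.15 with pandas 2.3.3.

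The 100 genes and the lists of marker and pathway names were chosen with earlier results of these data known. The name lists could not be applied, because 0 of 18429 IDs matched a name. The genes named are the 10 with the widest gap, the 3 at its edge and the 3 next after them, the 5 highest and 5 lowest in batch A, the 5 most abundant in gamergates, the 5 with the most gamergates above all workers, and the 5 most and 5 least like the gene with the widest gap. Genes of the sets and of the 2-batch overlap are named because they belong there. Genes that passed the filter only with batch A are named for that reason. Alternatives changed the pseudocount, filter, normalization, ants, model and pairing.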

Additional observations from a re-analysis of the deposited data

Results flagged for a closer look

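Dixon's test was applied to 32 measures over the 10 stable workers, for genes named in the text and for values per ant. In 6 of them the highest ant was far from the next one. The test flags about 1 in 20 by chance only where values are normally distributed. RPKM entered it without a log, so the 6 flags are not read as an excess over chance. Stable worker 10 stood apart in 4 genes. Its level was 4.16 RPKM in Hsal_03536, where the next stable worker had 2.19, and 36.9 RPKM in Hsal_01632, where the next had 18.0. It was 1210 RPKM in Hsal_04477, where the next had 536, and 39.5 RPKM in Hsal_13031, where the next had 15.5. Hsal_01632, Hsal_04477 and Hsal_13031 belong to set 3, whose genes varied together in each group, so these 3 levels are not independent of each other. Stable worker 4 stood apart in 2 genes, at 5.48 RPKM in Hsal_09540, where the next had 1.05, and at 3.37 RPKM in Hsal_00647, where the next had 1.70. In Hsal_00647 no stable worker had more than 2 reads and the median was 0.5 reads, so nothing is read from that flag. Groups of more than 10 ants were not examined.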

How the results depend on the processing

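The batch A test called 0 genes of the list under each alternative fitted, and the lowest adjusted p of any of them in limma was 0.127. Over all rows limma called 1, against 3 with a pseudocount of 0.1 RPKM, 11 with 5 RPKM, 80 with no filter, and 0 with a filter at 1 RPKM, with batch A alone or with voom. Leaving out 1 ant at a time gave 1 to 6 calls over all rows. The number of genes of the list higher in gamergates was 56 to 67. The lowest, without gamergate 2, stood beside 56.0% of all rows, so the list had no excess there. The median over the list was 0.059 to 0.27 when 1 ant was left out, the lowest also without gamergate 2, beside 0.044 over all rows. With 1 ant of a pair left out, the lone ant is assumed to vary like the others. Of 255 values for 17 named genes, 252 kept their direction and 3 changed sign. Many of the 252 could not have changed. Changing the filter, fitting batch A alone, pairing by replicate number or leaving out an ant of batch C left every difference as it was. All 3 changes of sign came from leaving out 1 ant of batch A. Leaving out 1 ant gave -0.80 to 4.89 for Hsal_09096.2 (-0.73 without gamergate 2) and -0.32 to 3.07 for Hsal_03536. The causes were not tested.

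Whether ants of the same replicate number shared a nest was not tested, because nests are not given in the labels. Of 11 gamergate and transition worker pairs with the same number, 5 had a correlation over 0.1. The correlations ran from -0.29 to 0.37, and 1 gamergate correlated best with the transition worker of its own number. Pairs 1 and 2, both of batch A, had the same value of 0.178, so they are not separate values among the 5. With the replicate block, limma called 3 rows in all and 0 of the list.

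Of the 100 genes, the rule kept 66 with a pseudocount of 5 RPKM, 54 with means, 41 from batch B alone, 31 from batch C alone and 47 with batch A included. Leaving out 1 ant kept 66 to 88. Omitting 1 gamergate moved the median correlation among the genes between 0.024 and 0.064. The leave-outs of transition workers 9 and 10, the leave-outs within subsets, the split by prefix and the linkage of the sets were chosen after seeing the data. Depth limits genes with under 10 reads.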
